A study of Sus scrofa with 35 samples.

Results

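Glutathione S-transferases are detoxifying enzymes that join glutathione to reactive and fat-soluble compounds, such as aldehydes from oxidised lipids, so that the cell can export them. The cytosolic enzymes fall into classes named by Greek letters (alpha, mu, pi, theta, omega), the kappa class enzyme GSTK1 lies in mitochondria and peroxisomes, and the microsomal enzymes MGST1, MGST2 and MGST3 are membrane proteins of the MAPEG superfamily, which also holds enzymes of leukotriene and prostaglandin synthesis. In blood they are known from red cells, where GSTP1 and GSTO1 are abundant, and from white cells and platelets. The 9 genes described here were LOC780435 (named in the scanner files as mu 2), GSTA4, GSTK1, GSTO1, GSTP1, GSTT1, MGST1, MGST2 and MGST3. They were taken as every probe that was not a control and whose gene name in the scanner files was one of these symbols, which gave 25 of the 60305 probes of the array. Of these, 22 probes of 8 genes were among the 39072 probes of the authors' table of log2 values. The genes were chosen in part on measured differences between heat-stressed (HS) and thermoneutral (TN) pigs, so these differences are a description and carry no test, whereas the breed contrasts and the interaction of breed and climate were tested.

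Whole blood was collected into PAXgene tubes from 35 castrated male growing pigs, 1 array for each pig. The pigs were Créole (CR, a local Caribbean breed), Large White (LW) or their cross (F1), kept at 24 °C in thermoneutral conditions (TN) or exposed to heat (HS), at 30 °C by the sample labels and 32 °C by the protocol text. The exposure lasted 5 d by the labels, and pigs were slaughtered after 4 or 5 d of it by the published methods. There were 5 CR TN, 6 CR HS, 6 F1 TN, 6 F1 HS, 6 LW TN and 6 LW HS pigs, so that each breed was compared within the same 2 climates and no pig received any other treatment by the labels. The TN pigs were slaughtered before the temperature rose, so climate and day of slaughter cannot be told apart, and littermates and pen mates, which the labels do not give, were treated as independent. Of the marker genes of blood cells, 14 of 20 for erythroid cells, 5 of 13 for platelets, 9 of 14 for neutrophils, 6 of 8 for monocytes, 9 of 11 for T cells, 6 of 9 for B cells and 7 of 8 for cytotoxic cells were in the table, and each of these lists had genes well above background on all 35 arrays. The weakest gene was well above background on 13 arrays in the cytotoxic list, 31 in the neutrophil list and 34 or 35 in the others. On single arrays, 55.2% to 68.0% of probes were well above background, with the lowest group mean in F1 TN pigs (60.02% ± 3.35, SD, n = 6). The mean log2 value of the erythroid markers ranged from 10.12 to 12.32 in F1 TN pigs and from 8.89 to 10.79 in F1 HS pigs.

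Several genes were read by more than 1 probe of 60 bases, and how far these probes can be told apart decides what follows. The sequences below, as the scanner files give them from 5′ to 3′, are shown for LOC780435, because its probes differed most in their response, for the overlapping probes of GSTA4 and MGST1, because they read nearly the same stretch, and for GSTP1, which had a single probe in the table. Capitals mark the longest run shared by the 2 probes of GSTA4 or of MGST1, and the probes of LOC780435 shared no run longer than 7 bases.
LOC780435 A_72_P133001: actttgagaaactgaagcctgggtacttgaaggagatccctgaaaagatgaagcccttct
LOC780435 A_72_P536251: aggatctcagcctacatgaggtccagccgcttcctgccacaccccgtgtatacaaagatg
GSTA4 A_72_P210752: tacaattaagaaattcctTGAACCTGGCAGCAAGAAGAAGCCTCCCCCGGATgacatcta
GSTA4 A_72_P605968: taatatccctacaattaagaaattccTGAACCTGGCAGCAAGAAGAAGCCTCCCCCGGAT
MGST1 A_72_P618926: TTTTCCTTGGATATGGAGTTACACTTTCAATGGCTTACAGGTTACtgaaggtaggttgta
MGST1 A_72_P672779: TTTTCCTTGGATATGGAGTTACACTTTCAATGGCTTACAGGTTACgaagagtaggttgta
GSTP1 O8505: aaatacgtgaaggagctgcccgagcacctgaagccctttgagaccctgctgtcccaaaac

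Of the 22 probes, 3 (13.6%) passed an adjusted p of 0.05 in the comparison of HS with TN pigs over all breeds (limma, additive model of breed and climate), where 34.8% of all probes did. These were 1 of the 2 probes of LOC780435 and the probe of GSTP1, both higher in HS pigs (20.1% of all probes), and the probe of MGST2, lower in HS pigs (14.7%). Within F1 pigs 2 probes passed, those of LOC780435 and MGST2, where 38.7% of all probes did, and within CR and LW pigs none did (limma, 2 and 3 at an unadjusted p under 0.05), where 0% of all probes passed in either breed. As this comparison chose the genes, nothing is read from the count. The median difference over the 22 probes was -0.09 on the log2 scale, against 0.06 over all probes, and the differences ran from -0.44 for MGST2 to 0.99 for LOC780435. In 9 probes the HS mean lay below the TN mean in all 3 breeds and in 2 probes above it. The same was true of 22.2% and 34.4% of all probes. Most of the 9 were probes of MGST1, which are no replicates of each other. The count and the median over the 22 probes thus weigh this gene more than the others.

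**Figure D1:**
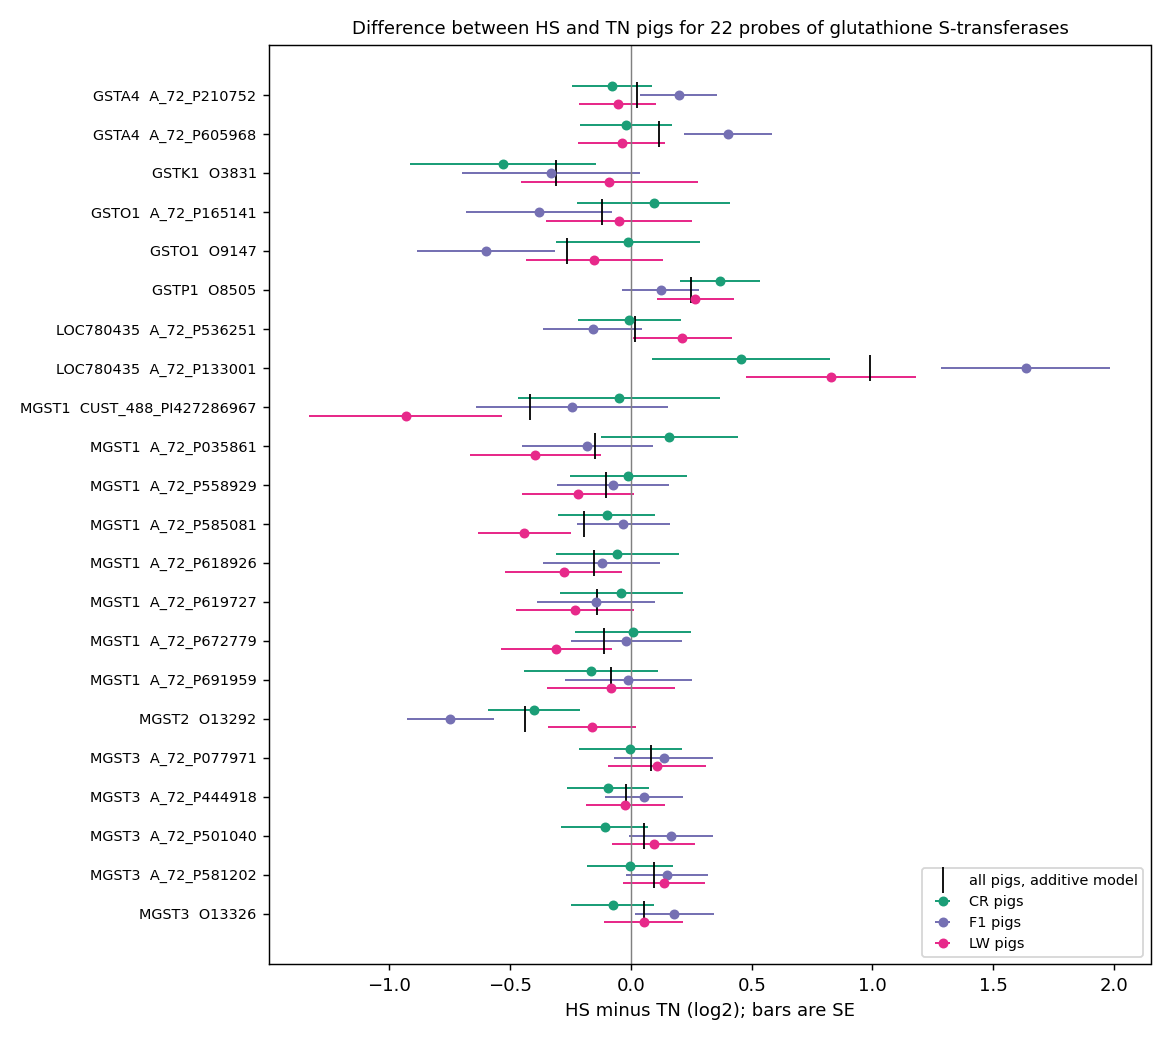
Difference of HS minus TN pigs in log2 units (horizontal axis) for 22 probes of 8 genes (vertical axis), with points and SE bars for CR, F1 and LW pigs and a black mark for the additive model over all pigs. The probe A_72_P133001 of LOC780435 lies farthest to the right in F1 pigs (1.63), and MGST2 lies farthest to the left in F1 pigs (-0.75).

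LOC780435 is a mu class enzyme, the class that acts on epoxides and quinones. With probe A_72_P133001, the 5 CR TN pigs had log2 values of 6.08, 7.32, 7.44, 7.48 and 7.79 and the 6 CR HS pigs of 6.37, 7.62, 7.76, 8.06, 8.09 and 8.18. The F1 TN pigs had 5.76, 5.82, 6.15, 6.31, 6.35 and 7.72 and the F1 HS pigs 7.72, 7.98, 7.98, 7.99, 8.00 and 8.25. The LW TN pigs had 5.90, 6.10, 6.57, 6.65, 7.78 and 7.96 and the LW HS pigs 6.98, 7.02, 7.65, 7.90, 8.16 and 8.23. The pigs thus spread unevenly, with most HS pigs near the top of the range and the TN pigs of F1 and LW split between a low and a high level. Below the widest gap between neighbouring values, which lay between 6.65 and 6.98 and was hardly wider than the next (0.34 against 0.30), stood 10 of 17 TN pigs and 1 of 18 HS pigs. By group these were 1 of 5 CR TN, 1 of 6 CR HS, 5 of 6 F1 TN, 4 of 6 LW TN, and no F1 HS or LW HS pig.

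The HS pigs exceeded the TN pigs with this probe by 0.99 ± 0.22 (SE, 35 pigs) on the log2 scale, a fold of 1.99, and 17 of 18 HS pigs lay above the TN mean of their breed. The difference was 0.46 ± 0.37 in CR, 1.63 ± 0.35 in F1 and 0.83 ± 0.35 in LW pigs. The group means ordered as F1 HS (7.99 ± 0.17, SD), CR HS (7.68 ± 0.68), LW HS (7.66 ± 0.55), CR TN (7.22 ± 0.66), LW TN (6.83 ± 0.86) and F1 TN (6.35 ± 0.71), and no neighbours in this order differed by more than the larger of their SDs. Within each of the 4 slides that held all the groups needed, the mean difference was 0.93 to 1.24. The 75th percentile of processed intensity ranged from 112 to 185.9 on F1 TN arrays and from 172.1 to 265.8 on F1 HS arrays. Its correlation with this probe, after removal of the group means, was 0.04, which leaves out any difference between groups. Scaling on that percentile gave an HS minus TN difference of 1.25, and normexp background correction gave 0.80. The part of array intensity in the difference was not tested. Without the F1 pigs the difference was 0.65 ± 0.27, and in that fit 0 of 39072 probes passed (limma, 6845 at an unadjusted p under 0.05). With the mean of the erythroid markers as a covariate it was 0.80 ± 0.24, and 3 of 39072 probes passed, none of them among the 22.

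The other probe of LOC780435, A_72_P536251, gave no such picture. Its values ran from 8.69 to 9.94 in CR TN, 8.74 to 10.12 in CR HS, 9.11 to 9.81 in F1 TN, 8.98 to 9.66 in F1 HS, 8.87 to 9.87 in LW TN and, with heat, 9.04 to 9.78 in the LW pigs, and the groups overlapped in every breed. HS minus TN was 0.02 ± 0.12 over all pigs, and -0.01 in CR, -0.16 in F1 and 0.21 in LW pigs. From pig to pig within a group the probes still moved together, with a correlation of 0.69 between their deviations from the 6 group means over 35 pigs.

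**Figure D2:**
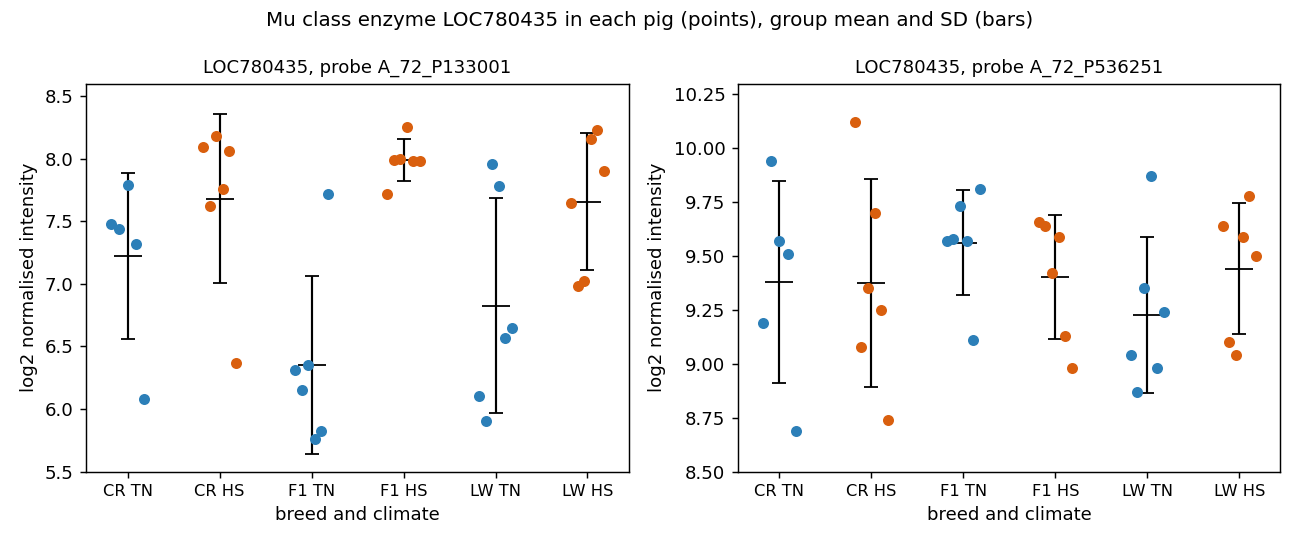
Log2 normalised intensity (vertical axes, each with its own range) of both probes of LOC780435 in each pig (points) by breed and climate (horizontal axes), with the group mean and SD as bars. With A_72_P133001, 5 of 6 F1 TN pigs and 4 of 6 LW TN pigs lie below 6.7 and no F1 HS or LW HS pig does, whereas with A_72_P536251 the TN and HS pigs of each breed overlap.

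The gene most like A_72_P536251 among 8811 named genes was GSTM3, another mu class enzyme, with a correlation of 0.93 over 35 pigs after the group means were removed. The next were SDC2 and SLC6A4, the serotonin transporter that platelets carry, at 0.71 each. The probe of GSTM3 matched A_72_P536251 at 21 of 58 bases in the best alignment without gaps. HS minus TN for GSTM3 was 0.04 ± 0.10. For A_72_P133001 the closest genes were SLC46A1, a folate and heme transporter (0.73), TPT1 (0.58) and GSTM3 (0.58).

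MGST2, which conjugates glutathione to leukotriene A4 and acts on lipid peroxides, was read by 1 probe. The CR TN pigs had log2 values of 6.19, 6.41, 6.46, 6.73 and 7.04 and the CR HS pigs of 5.66, 5.92, 5.99, 6.01, 6.38 and 7.04. The F1 TN pigs had 6.54, 6.61, 6.78, 6.88, 6.97 and 7.01 and the F1 HS pigs 5.63, 5.71, 5.93, 6.19, 6.35 and 6.50. The LW TN pigs had 6.07, 6.22, 6.42, 6.52, 6.65 and 6.72 and the LW HS pigs 6.09, 6.13, 6.14, 6.21, 6.35 and 6.71. In F1 pigs every HS value lay below every TN value, which held for 8.08% of all probes in that direction, while in CR and LW pigs the climates overlapped. The difference of HS minus TN was -0.44 ± 0.11 over all pigs, with -0.40 in CR, -0.75 in F1 and -0.16 in LW pigs, and 2 of 18 HS pigs lay above the TN mean of their breed. It was -0.54 to -0.56 within 3 slides and 0.09 within slide 1.

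The probe of MGST2 was well above background on all 35 arrays. Its group means, from 6.05 to 6.80, lay below the lowest array median of 7.13. From pig to pig, MGST2 varied with the mean of the T cell markers and with the brightness of the array. Its deviations from the group means had a correlation of -0.75 with the mean of the T cell markers. That mean ranged from 10.31 to 10.64 in F1 TN pigs and from 10.53 to 11.12 in F1 HS pigs, and the correlation with the 75th percentile of processed intensity was -0.49. The part of either in the difference of MGST2 was not tested. Fewer cells of a type and less RNA per cell cannot be told apart in whole blood. The genes most like MGST2 were GJA1, PDE4DIP and TRPA1, with correlations of 0.94, 0.93 and 0.93. Scaling each array on its 75th percentile of processed signal in place of quantile normalisation gave -0.81, and normexp background correction gave -0.32. Without the F1 pigs the difference was -0.28 ± 0.14 and with the erythroid covariate -0.33 ± 0.12, and neither passed.

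GSTP1, the pi class enzyme and the main cytosolic one of mature red cells, varied little. Its values ran from 11.68 to 12.21 in CR TN, 12.05 to 12.69 in CR HS, 11.59 to 12.44 in F1 TN, 11.83 to 12.33 in F1 HS, and, among LW pigs, 11.55 to 12.10 with TN and 11.45 to 12.46 with HS. The climates overlapped in every breed, although the HS mean was the higher in each. HS minus TN was 0.25 ± 0.09, a fold of 1.19, with 0.37 in CR, 0.12 in F1 and 0.27 in LW pigs, and 14 of 18 HS pigs lay above the TN mean of their breed. The correlation of GSTP1 with the erythroid markers from pig to pig was -0.32. With the erythroid mean as a covariate the difference was 0.17 ± 0.10 and without the F1 pigs 0.32 ± 0.11, and neither passed. A probe without a gene symbol, A_72_P227172, which the scanner files describe as part of the pig pi class enzyme, gave 0.30 ± 0.09. Among the genes closest to GSTP1 across pigs were KRT5 (0.71) and BSCL2 (0.68). The KRT5 probe was well above background on 19 of 35 arrays.

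GSTK1 was the gene with a breed difference past the threshold, between CR and LW pigs. Its probe had log2 values of 11.28, 11.65, 11.85, 12.48 and 13.01 in the CR TN pigs and 10.48, 10.85, 11.02, 11.12, 12.43 and 13.23 in the CR HS pigs. The LW TN pigs had 10.53, 10.56, 10.73, 10.87, 11.03 and 11.19 and the LW HS pigs 10.40, 10.60, 10.74, 10.78, 10.92 and 10.96. The F1 TN pigs had 10.48, 10.90, 11.01, 11.43, 11.81 and 12.40 and the F1 HS pigs 10.34, 10.46, 10.60, 10.83, 11.85 and 11.96. All 5 CR TN pigs lay above the highest LW TN pig, as with 0.264% of all probes, and 4 of 6 CR HS pigs lay above the highest LW HS pig. The CR HS pigs reached down to 10.48, within the range of the LW pigs, and the F1 pigs ran from 10.34 to 12.40. The spread was also unequal, with an SD of 0.69 and 1.07 in the groups of CR pigs, 0.69 and 0.72 in those of F1 pigs and 0.26 and 0.21 in those of LW pigs.

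GSTK1 was higher in CR than in LW pigs by 1.0 ± 0.26 (SE, 11 and 12 pigs) on the log2 scale, with a 95% interval of 0.47 to 1.53 and an adjusted p of 0.0485 (limma, Benjamini-Hochberg over 39072 probes, two-sided). This interval and p assume the same variance in all groups, although the SDs were unequal, and the independence of littermates and pen mates. GSTK1 was the only one of the 22 probes to pass in this contrast, in which 1.08% of all probes passed. The difference was 1.23 in TN and 0.79 in HS pigs, and 0.76 to 1.35 within the 4 slides that held both breeds in both climates. F1 minus CR was -0.60 ± 0.26 (95% interval -1.13 to -0.07, adjusted p = 0.892, limma) and F1 minus LW was 0.40 ± 0.26 (-0.12 to 0.92, adjusted p = 0.9998), so the F1 mean lay between those of the parent breeds without a difference from either that passed. The adjusted p lay close to the threshold, passed it in 11 of 35 fits that left out 1 pig each, and ranged from 0.0221 to 0.0999 over them, the highest being without CR TN pig 3. It missed the threshold with normexp (0.0550), scaling on the 75th percentile (0.0575), slide as fixed terms (0.0580) and recomputed values without a filter (0.0720), while the difference stayed between 0.94 and 1.02. With the erythroid marker mean as a covariate the difference was 1.11 and the adjusted p was 0.00967. HS minus TN for GSTK1 was -0.31 ± 0.21, and -0.01 with that covariate. The genes closest to GSTK1 across pigs were PPOX, an enzyme of heme synthesis (0.81), FBXW4 (0.76) and DUSP9 (0.71).

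**Figure D3:**
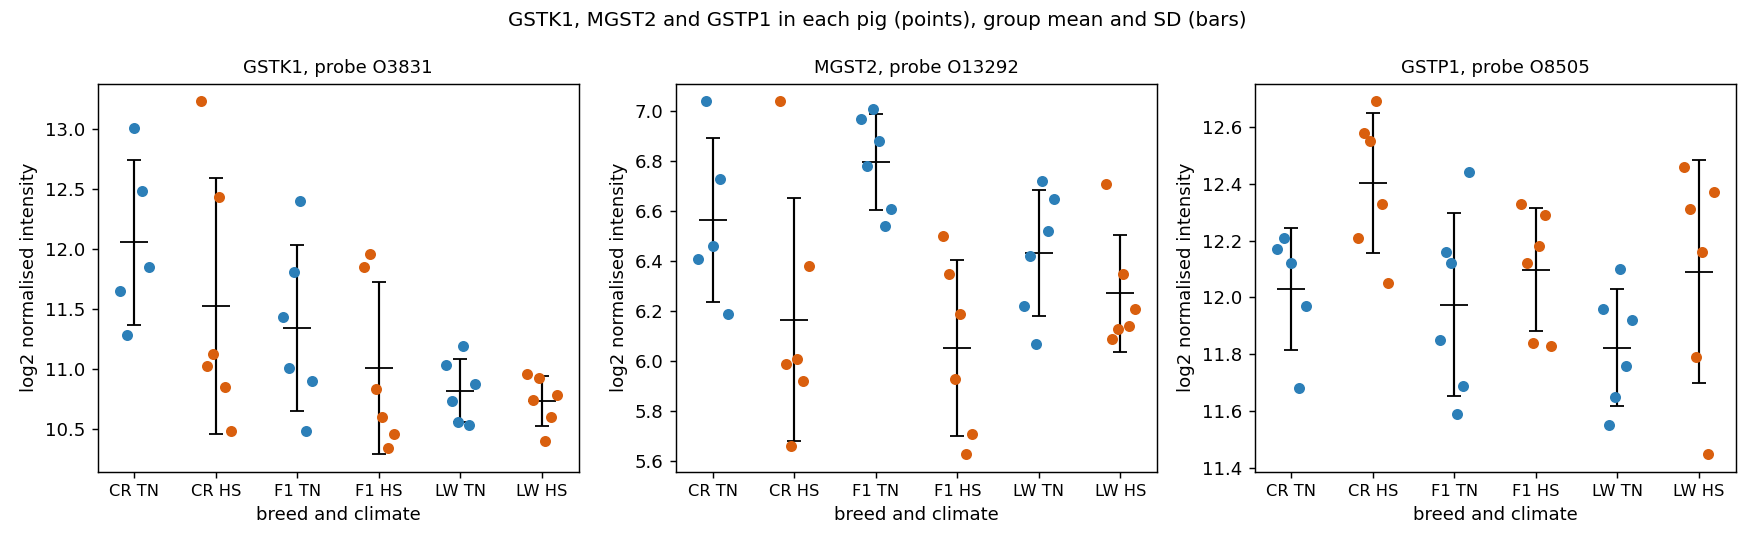
Log2 normalised intensity (vertical axes, each with its own range) of GSTK1, MGST2 and GSTP1 in each pig (points) by breed and climate (horizontal axes), with the group mean and SD as bars. GSTK1 is widely spread in CR pigs and narrow in LW pigs. All CR TN pigs lie above the LW TN pigs, whereas several CR HS pigs lie within the range of the LW pigs. MGST2 does not overlap between F1 TN and F1 HS pigs, and GSTP1 overlaps between climates in each breed.

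No other probe passed in a breed contrast. In CR minus LW, 5 of 22 probes had an unadjusted p under 0.05, namely GSTK1, GSTP1 (0.27 ± 0.11, adjusted p = 0.380) and 3 probes of MGST1 (0.30 to 0.36, adjusted p = 0.430 to 0.466). In F1 minus CR, limma called 0 of 22 probes, with 1 at an unadjusted p under 0.05, where 0.184% of all probes were called. In F1 minus LW it called 0 of 22, with 2 at an unadjusted p under 0.05, where 0.0256% of all probes were called. These were the overlapping probes of GSTA4, with -0.26 ± 0.11 and -0.31 ± 0.13. In F1 minus LW the 95% intervals of the 22 probes reached from -0.90 to 0.92.

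**Figure D4:**
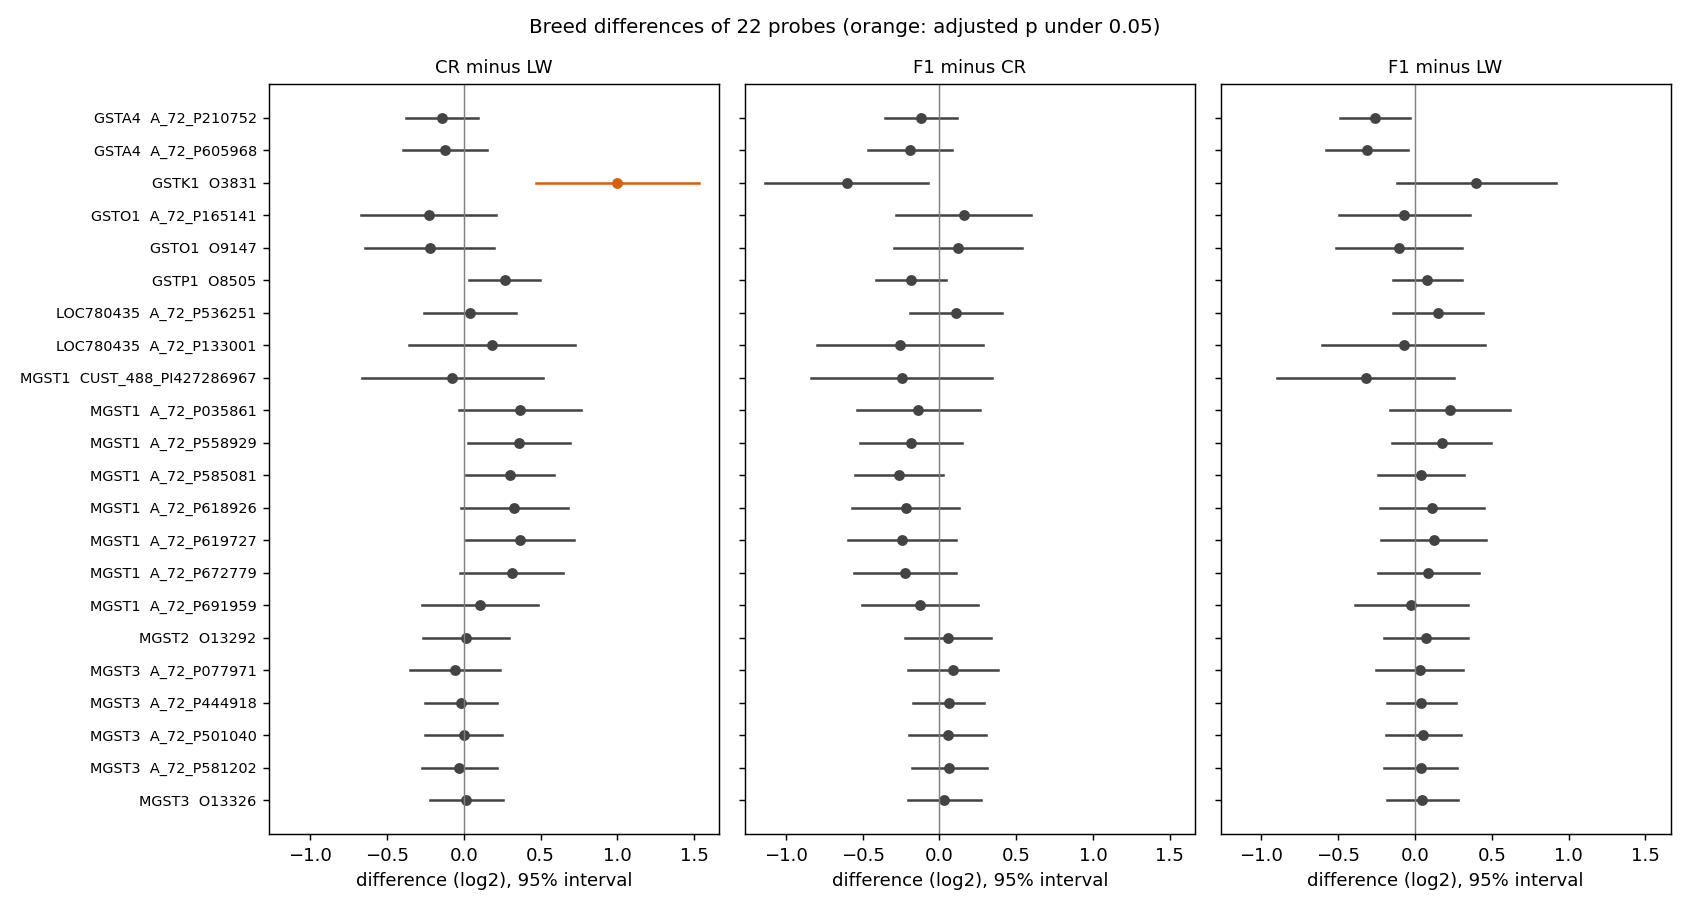
Breed differences in log2 units (horizontal axes) with 95% intervals for the 22 probes (vertical axis), in panels for CR minus LW, F1 minus CR and F1 minus LW. The probe of GSTK1 in CR minus LW (1.0, from 0.47 to 1.53) is drawn in orange as the only one past the threshold.

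The response to heat was not shown to differ between breeds for any of the 22 probes. The test of both interaction terms called 0 of them, with 0 at an unadjusted p under 0.05 and a smallest adjusted p of 0.371 for A_72_P133001 of LOC780435, and it called 0% of all probes. For this probe the response in F1 exceeded that in CR pigs by 1.18 ± 0.51 (95% interval 0.14 to 2.21, adjusted p = 0.398) and that in LW pigs by 0.81 ± 0.50 (-0.20 to 1.81, adjusted p = 0.326). For MGST2 the response in F1 minus that in LW pigs was -0.58 ± 0.26 (-1.11 to -0.06, adjusted p = 0.176). Over the 22 probes and the 3 pairs of breeds, the 95% intervals reached from -2.06 to 2.21.

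GSTO1, the omega class enzyme, which reduces dehydroascorbate and methylated arsenic, was read by 2 probes with no shared run over 6 bases and a correlation of 0.96 across pigs. With A_72_P165141 its values ran from 10.85 to 13.21 over all pigs, and the climates overlapped in every breed. HS minus TN was -0.12 ± 0.18 with this probe and -0.26 ± 0.17 with O9147. With the erythroid marker mean as a covariate both turned positive, to 0.32 and 0.17. Of the 22 probes, those of GSTO1 had the highest correlations with the erythroid markers from pig to pig (0.75 and 0.77), and its closest genes were CST6 (0.87), ALAD, the second enzyme of heme synthesis (0.85), and CPEB4 (0.84).

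GSTA4, the alpha class enzyme that clears 4-hydroxynonenal, an aldehyde of lipid peroxidation, was read in the table by 2 probes that share 34 bases and had a correlation of 0.92 across pigs. The values with A_72_P210752 ran from 8.57 to 9.91. HS minus TN was 0.03 ± 0.09 with this probe and 0.12 ± 0.11 with A_72_P605968. The correlation with the T cell markers was 0.44 and 0.34, and the closest genes were KCTD21 (0.73), the lymphocyte transcription factor BACH2 (0.72) and ADSL (0.71). The third probe of GSTA4, O9968, is not in the table, and it was well above background on 9 of 35 arrays.

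MGST1, which protects membranes from lipid peroxides, had 8 probes, which fell into 3 kinds. Of these, 6 moved together, with correlations of 0.87 to 0.97 across pigs, and group means of each between 6.78 and 8.89. The probe CUST_488_PI427286967, with values of 12.43 to 15.38, had correlations of 0.36 to 0.67 with the other 7, and as given in the files it has a stop codon in every reading frame, while its reverse complement has 3 frames without one. The probe A_72_P691959 had correlations of 0.16 to 0.51 with the first 6. HS minus TN was negative with all 8 probes, from -0.42 ± 0.24 with CUST_488_PI427286967 to -0.08 ± 0.15 with A_72_P691959, and none passed, although CUST_488_PI427286967 did with array weights (-0.47). These probes share 1 gene and partly the same bases, so they are no replicates of each other. With the erythroid marker mean as a covariate, 5 of the 6 that moved together turned positive (0.03 to 0.09). CUST_488_PI427286967 was closest to TMEM33 (0.91), MST4 (0.89) and NPTN (0.89).

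MGST3, a microsomal enzyme with glutathione peroxidase activity, varied little between groups. Its 5 probes, of which O13326 and A_72_P501040 are the same 60 bases, had correlations of 0.79 to 0.97 across pigs, and HS minus TN of -0.02 to 0.10, each with an SE of 0.09 to 0.12. With A_72_P077971 the values ran from 10.56 to 12.08, and the group means from 11.30 to 11.45. With the erythroid covariate the 5 differences were 0.16 to 0.27. The closest genes were HAUS4 (0.86) and the cell division genes CCNB1 (0.85) and NCAPD2 (0.85). The values of the pair of identical probes in the same pig differed by a median of 0.06 and at most by 0.15. Identical probes did not always read the same level, since MGST1 A_72_P035861 and a probe of the same 60 bases without a gene symbol differed by a median of 0.32 and at most by 0.53, with a correlation of 0.98 across pigs.

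GSTT1, the theta class enzyme, has no probe in the table. Its 2 probes are the same 60 bases, and they were well above background on 7 and 6 of 35 arrays. In TN pigs this was 2 of 17 arrays with each, and in HS pigs 5 and 4 of 18. No level is given for them.

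The members differed in how they followed the cells of the blood. Correlations with the mean of the marker lists, over 35 pigs and after removal of the group means, are descriptions, since all values of a pig come from 1 array. The 5 probes of MGST3 had 0.64 to 0.69 with the neutrophil markers and 0.52 to 0.68 with the erythroid markers. The 6 MGST1 probes that moved together had 0.39 to 0.51 with the neutrophil, 0.40 to 0.49 with the monocyte and 0.33 to 0.49 with the erythroid markers, so that no 1 list stood out for either gene. GSTK1 was at -0.54 with the B cell markers. For A_72_P133001 of LOC780435 the correlations lay between -0.25 and 0.25 with all 7 lists. Among the 8 probes that stand for a member, the 28 pairwise correlations ran from -0.54 (MGST1 with MGST2) to 0.60 (LOC780435 with MGST2). Both ends depended on the probe that stands for the gene. The other MGST1 probes had -0.37 to -0.18 with MGST2, and A_72_P133001 of LOC780435 had 0.01.

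**Figure D5:**
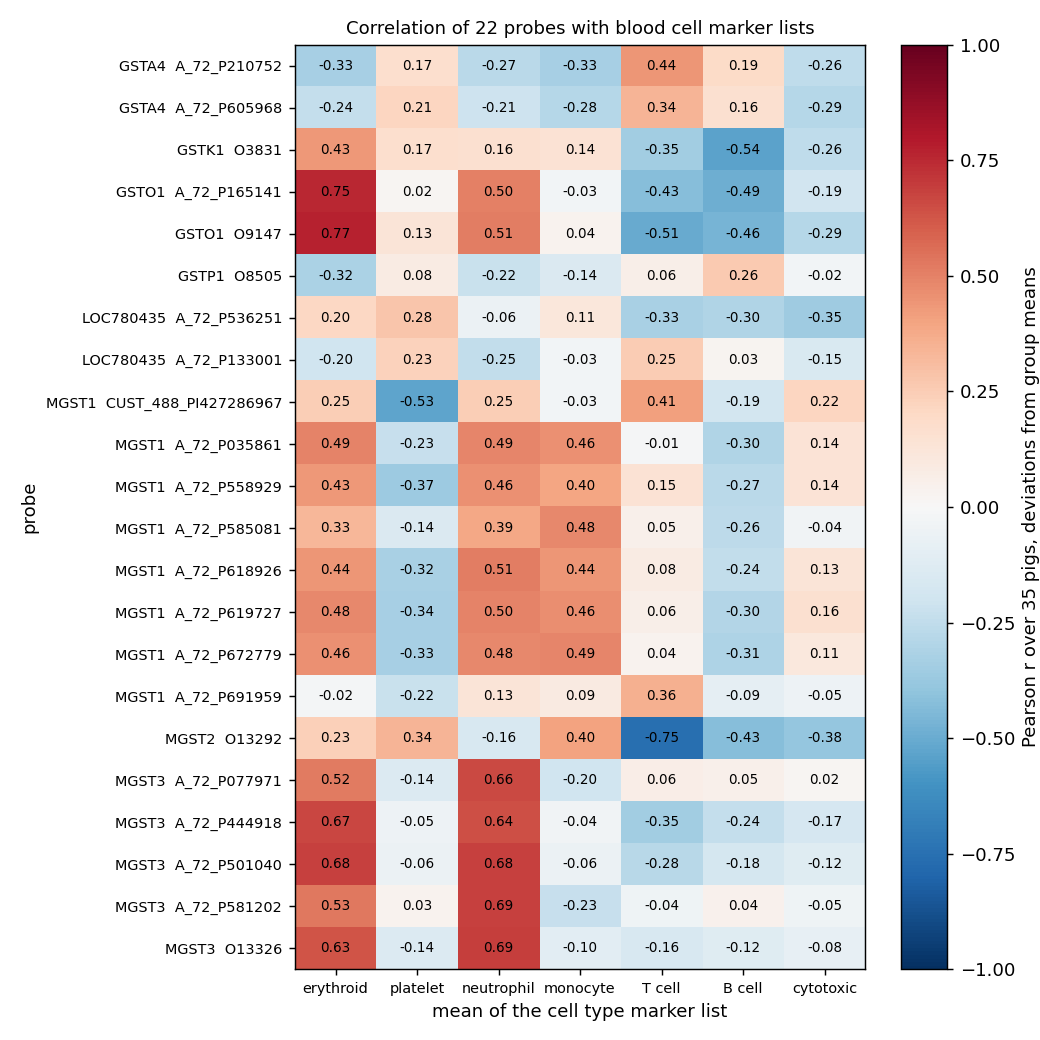
Pearson correlation over 35 pigs (colour and number) between each of the 22 probes (vertical axis) and the mean of 7 marker lists of blood cells (horizontal axis), after the group means were removed. GSTO1 is highest with the erythroid markers (0.75 and 0.77), MGST3 is high with both the neutrophil (0.64 to 0.69) and the erythroid markers (0.52 to 0.68), and MGST2 is lowest with the T cell markers (-0.75).

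Around these enzymes, 28 of 70 genes of 7 lists on glutathione and related enzymes passed between HS and TN pigs (40.0%, 18 higher and 10 lower, limma), against 39.5% of 8811 named genes with 1 probe each (22.8% higher and 16.8% lower). Their median was 0.10, against 0.06 for all named genes. Some of the 70 have no gene symbol, whereas the 39.5% covers named genes only. The lists were chosen with earlier results of these data known. The adjusted p between HS and TN pigs, here and below, therefore describe these genes and do not test them. In the synthesis and turnover of glutathione, 8 of 14 genes passed. Glutathione synthetase GSS rose by 0.27 ± 0.07 (adjusted p = 0.00575), as did the peptidase LAP3 (0.31 ± 0.10) and the neutral amino acid transporter SLC1A4 (0.23 ± 0.09). CHAC2 (-0.85 ± 0.19, adjusted p = 0.00219) and CHAC1 (-0.34 ± 0.09), which break glutathione down, were lower in HS pigs, as were the peptidases ANPEP (-0.51 ± 0.14) and DPEP1 (-0.18 ± 0.07) and the shared chain of amino acid transporters SLC3A2 (-0.53 ± 0.19). The subunits of the rate-limiting enzyme did not pass, with -0.07 ± 0.07 for GCLC and -0.23 ± 0.14 for GCLM.

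Of 12 genes of glutathione reduction and NADPH supply, 2 passed, the mitochondrial NADPH source IDH2 (0.24 ± 0.08) and the glutaredoxin GLRX3 (0.17 ± 0.06), while glutathione reductase GSR gave 0.07 ± 0.12. Of 10 peroxidases and glyoxalases, HAGH, which frees glutathione from the product of glyoxalase I, fell by 0.89 ± 0.20 (adjusted p = 0.00189) and GPX4, which reduces lipid peroxides, rose by 0.19 ± 0.07. Of 5 exporters, ABCC1, the pump for glutathione conjugates, rose by 0.41 ± 0.10 (adjusted p = 0.00244) and ABCC5 by 0.37 ± 0.10. Of the 2 MAPEG relatives in the table, the prostaglandin E synthase PTGES rose by 0.26 ± 0.10. Of 12 regulators and their targets, NFE2L2, the transcription factor that drives many of these enzymes, gave -0.43 ± 0.09 (adjusted p = 0.00193). Its target NQO1 gave -0.57 ± 0.16, its partner MAFG -0.33 ± 0.11 and its relative NFE2L1 0.38 ± 0.08. The other targets in the list, HMOX1 (0.29 ± 0.15) and TXNRD1 (0.11 ± 0.06), were higher in HS pigs and did not pass.

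Of 15 other transferases and relatives, 8 were higher and 1 lower in HS pigs, where 22.8% of all named genes were higher and 16.8% lower. The higher ones with a gene symbol were EEF1G (0.31 ± 0.08), VARS (0.26 ± 0.07) and MARS (0.33 ± 0.08), translation proteins that carry a transferase-like domain, the chloride channel relative CLIC1 (0.32 ± 0.10) and GSTZ1 (0.23 ± 0.06), an enzyme of tyrosine breakdown. The other higher ones have no gene symbol. Among them is A_72_P227172, which the scanner files describe as part of the pig pi class enzyme, the class of the member GSTP1. CLIC2 was lower (-0.81 ± 0.22). Between CR and LW pigs, 3 of the 70 genes passed, where 1.1% of all named genes did. These were the esterase ESD, which splits S-formylglutathione (-1.18 ± 0.19, adjusted p = 0.000218), LAP3 (0.46 ± 0.12, adjusted p = 0.0428) and the cystine transporter SLC7A11 (0.42 ± 0.11, adjusted p = 0.0424). None of the 70 genes passed between climates when the F1 pigs were left out (limma, 19 at an unadjusted p under 0.05) or when the erythroid marker mean was a covariate (20 at an unadjusted p under 0.05). Of all 39072 probes, 0 and 3 passed in these fits, so nothing about these genes is read from it. Of the 14 erythroid genes in the table, 7 were lower and 1 higher in HS pigs (16.8% and 22.8% of all named genes), and the erythroid mean was 10.71 in CR TN and 10.20 in CR HS, 11.13 in F1 TN and 10.08 in F1 HS, and 10.87 and 10.52 in the LW pigs of TN and HS.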

How the data were processed

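RNA of whole blood from 35 pigs was hybridised on 1-colour Agilent porcine arrays (probes 60 bases long). The scanner files hold, per the file headers, the raw median intensity, the local background intensity and a processed intensity of each spot from Feature Extraction 10.10.1.1, a version that the submitters' processing notes also give. The authors deposited a table of log2 values, made from the median intensity by quantile normalisation between arrays with a filter on expressed probes, whose rule is not given in the sources used here. Each value column of the table bears a sample's name. Groups came from the sample labels. No spot of the 25 probes of the member genes was marked by the scanner software or saturated.

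The log2 values of all 39072 probes of the table were fitted with limma 3.58.1 (R 4.3.3, lmFit and eBayes) as breed plus climate, and as 6 group means for effects within a breed and the interaction. All tests were two-sided, with Benjamini-Hochberg adjustment over all probes at a threshold of 0.05. Pen, day of slaughter, father and mother, random effects in the study's model, are not in the labels and could not be fitted. Fits were tested on simulated data with independent noise for each probe and pig. Such data cannot show how the fits behave with littermates or pen mates. The number of arrays limits the precision.

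Alternatives were values recomputed from the median intensity with quantile normalisation (with a filter, none, or a stricter one), normexp background correction with an offset of 50, scaling on the 75th percentile, slide as fixed terms or a random block, array weights, leaving out each pig, leaving out F1 pigs, and the mean of the erythroid markers as a covariate. Recomputed values differed from the deposited ones by a median of 0.02.

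The probe that stands for a gene is the one well above background on most arrays, ties going to the highest mean. Likeness is the Pearson correlation of deviations from the 6 group means, with the 3 closest genes named, except for 1 gene that is not reported here. From each pathway list the genes past the threshold are named, at most 4 for each direction by adjusted p. GCLC, GCLM, GSR, GSTM3, HMOX1, TXNRD1 and the fifth gene of a list in 1 direction were named after their values were seen, as was the widest gap of LOC780435. The members and lists were chosen with earlier results of these data known. Coordinates are not given, since the files map no probe and a genome was not used here.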

Additional observations from a re-analysis of the deposited data

Results flagged for a closer look

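In 54 groups of pigs, 1 for each of 9 probes and 6 groups, 5 held a pig far from the others by Dixon's criterion at 95%, where chance gives about 1 in 20. For A_72_P133001 of LOC780435, 1 CR TN pig had 6.08 (the others 7.32 to 7.79), 1 CR HS pig 6.37 (the others 7.62 to 8.18) and 1 F1 TN pig 7.72 (the others 5.76 to 6.35). For A_72_P536251 of the same gene, 1 F1 TN pig had 9.11 (the others 9.57 to 9.81), and for GSTA4 A_72_P210752, 1 CR HS pig had 8.79 (the others 9.17 to 9.33). The probes of GSTT1 outside the log2 table were well above background on 5 (A_72_P284744) and 4 (O4053) of 18 HS arrays, against 2 of 17 TN arrays each, a difference that was not tested.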

How the results depend on the processing

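Of the 22 probes, 3 passed between HS and TN pigs, 2 to 3 did when 1 pig was left out, and 4 did with array weights, which added MGST1 CUST_488_PI427286967 (-0.47). LOC780435 A_72_P133001 and MGST2 passed in 35 of these 35 fits and GSTP1 in 29, missing without LW HS pig 2 or 6, LW TN pig 2, CR TN pig 4, CR HS pig 3 or F1 TN pig 4. The genes were chosen in part on this comparison, and each fit shares all but 1 pig with the full one. These passes therefore lend the members no support. The count among the 22 probes was 0 without the F1 pigs and 0 with the erythroid covariate (limma, 2 and 7 at an unadjusted p under 0.05), and for the 70 pathway genes also 0 and 0, against 28. In the same fits 0 and 3 of all 39072 probes passed, so this loss is not particular to the genes described here. The differences kept their direction without F1 pigs and with the covariate, at 0.65 and 0.80 for LOC780435 A_72_P133001, -0.28 and -0.33 for MGST2 and 0.32 and 0.17 for GSTP1. Within F1 pigs the count among the 22 probes was 4 with the erythroid covariate, against 2. The share of all probes in that fit is not given here, so nothing is read from this count. In CR minus LW, the 1 call (GSTK1) became 0 with recomputed values without a filter, with normexp, with scaling on the 75th percentile and with slide as fixed terms, and it was 0 to 1 when 1 pig was left out, while its difference stayed between 0.80 and 1.11 over all alternatives. The cause of these changes was not tested, except that the fit without F1 pigs holds fewer pigs. The counts in F1 minus CR, F1 minus LW and the interaction were 0 under each alternative run. No direction of a called value reversed. No paired analysis was possible because the labels give no replicate numbers shared between groups. The signal of GSTT1 over background limits what can be said of it.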
